A study of Mus musculus with 3 samples.

Results

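Genes of DNA replication and of the synthesis of DNA precursors were followed across 3 preparations of mouse dendritic cells grown from bone marrow. The list held 36 genes, chosen for their function. A gene counted as measured if the platform annotation named a probe for it by a current or older symbol and if that probe lay above background, at a detection p under 0.01, on at least 1 array. By that rule 31 of the 36 were measured, out of 8055 genes in the series. All 31 were above background on all 3 arrays, so none entered through a single condition. Pola1 and Prim1, the catalytic subunits of polymerase alpha and of primase, had 1 probe each, which was not above background on any array. Gins1, Gins2 and Rfc3 had no probe named in the annotation used here and were not analysed.

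Each preparation was measured once, on an Illumina MouseRef-8 v2 bead array. Marrow cells of DBA mice aged 6 weeks were, in all 3 groups, cultured over 8 days in GM-CSF (20 ng/ml) plus IL-4 (2 ng/ml). The imDC group was the immature culture, for which the labels name no stimulus and no time of harvest. The tDC group, labelled semi-mature or tolerogenic, also received TNF-alpha at 10 ng/ml with type II collagen at 50 µg/ml for 4 h, and the mDC group, labelled fully mature, lipopolysaccharide at 1 µg/ml with the same dose of collagen for 24 h. Stimulus and time thus changed together and cannot be told apart. The labels name no sorting step. Of 9 dendritic cell markers 8 were detected, and Flt3 was at background on every array. Single arrays allow no test, standard error or p-value, and precision is limited by their number. The only measure of error was the disagreement between 2 probes of the same gene. Over 1778 genes its median was 0.12 on the log2 scale for tDC against imDC, 0.15 for mDC against imDC and 0.13 for mDC against tDC, and its 90th percentile was 0.35, 0.42 and 0.34. It leaves out the variation between cultures.

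Before a cell copies its DNA, the proteins Cdc6 and Cdt1 load a ring of MCM proteins onto each origin, and Cdc45 with the GINS proteins turns that ring into a working helicase. Primase and polymerase alpha start each new strand, polymerases epsilon and delta extend it while held to the DNA by the Pcna clamp, and Fen1 and ligase 1 join the pieces. Most of these genes are transcribed as cells pass from G1 into S phase under E2F transcription factors, and their transcripts are scarce in cells that have left the cycle. Marrow cultures with GM-CSF hold dividing precursors, whereas mature dendritic cells divide little.

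Transcripts of the replication genes were lower in both stimulated cultures than in the immature one. In tDC 28 of 31 members had a lower level than in imDC, against 49.8% of all genes. In mDC 29 of 31 were lower, against 50.2% of all genes. The median log2 difference of the members was -0.45 in tDC and -0.55 in mDC, where the median over all genes was 0.00 in both. In such bulk samples fewer cells with such transcripts and less of the transcript in each cell cannot be told apart.

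The differences were moderate. A difference of at least 1.5-fold was counted as well as one of at least 2-fold, and both counts are read against all genes. In tDC 9 of 31 members were at least 1.5-fold lower than in imDC (all genes, 7.79%), and 0 were at least 1.5-fold higher (all genes, 7.61%). In mDC 14 of 31 were at least 1.5-fold lower (all genes, 13.3%), and 0 were as much higher (all genes, 12.4%). Without background correction, and with the authors' processed values, the counts at 1.5-fold lower were 5 in tDC and 9 in mDC. At 2-fold the members were few. Tk1 and Ung were at least 2-fold lower in tDC (2 of 31, all genes 2.02%) and in mDC (2 of 31, all genes 5.96%), the second a share near the background. These calls depended on the processing. The count was 0 in tDC and 1 in mDC without background correction, and 1 in each with an offset of 50, with the authors' values and with probes averaged per gene. No member was at least 2-fold higher in tDC (all genes, 2.88%) or in mDC (all genes, 6.16%).

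**Figure D1:**
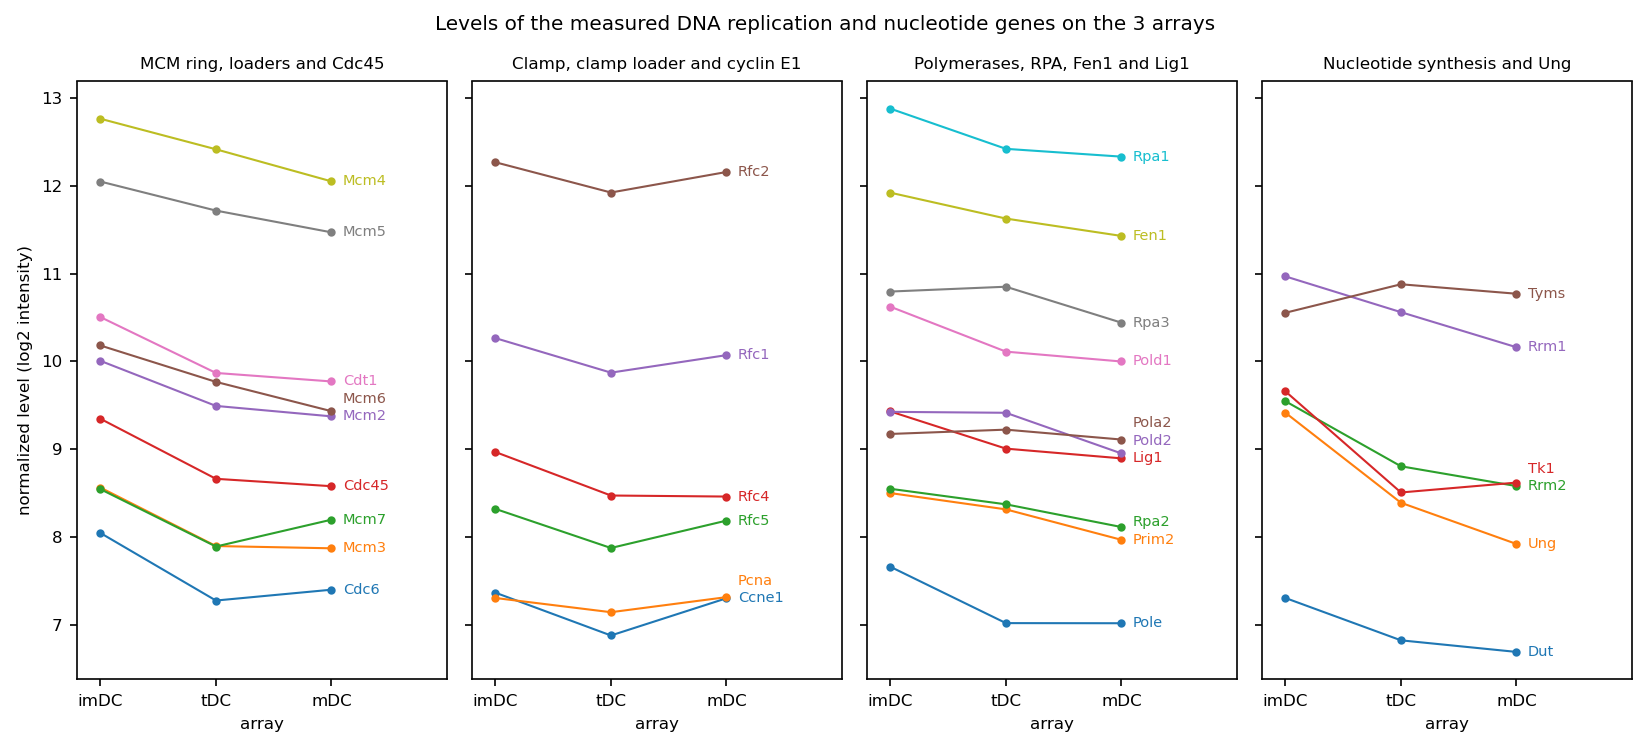
Normalized level (log2 intensity) of each of the 31 measured members on the imDC, tDC and mDC arrays, 1 line per gene and 1 panel per group of roles, with different genes on different probes and so not comparable in level. Of the 31, 27 had their highest level on the imDC array, and Tyms, Pcna, Pola2 and Rpa3 did not.

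The MCM ring and the proteins that load it were lower as a whole. All 8 members of this role lay below imDC in tDC, with a median of -0.58 (all genes lower, 49.8%). In mDC all 8 did too, with a median of -0.67 (all genes lower, 50.2%). Mcm3, a subunit of the ring, had log2 levels of 8.56 in imDC, 7.89 in tDC and 7.87 in mDC. It was 1.59-fold lower in tDC and 1.62-fold lower in mDC, and the stimulated arrays differed by only -0.03. Mcm2 stood at 10.01, 9.49 and 9.37 in the same order, which put it 1.43-fold and 1.55-fold below imDC. Mcm4, at 12.77, 12.42 and 12.05, and Mcm6, at 10.18, 9.77 and 9.43, were lowest in mDC with tDC between. Their mDC levels were 1.64-fold and 1.68-fold below imDC. Mcm5 took the same order, with levels of 12.05, 11.72 and 11.47, and was 1.49-fold lower in mDC. Mcm7 was the exception in the ring, since its lowest level was in tDC. It had 8.54 in imDC, 7.89 in tDC and 8.20 in mDC, 1.57-fold and 1.27-fold lower than in imDC.

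Both loaders were lower in each stimulated culture. Cdc6, which recruits the ring to origins, had log2 levels of 8.04, 7.27 and 7.40 in imDC, tDC and mDC and was 1.71-fold lower in tDC and 1.57-fold lower in mDC. In tDC only 4.24% of all genes had a lower difference. Cdt1, which acts with it, had 10.50, 9.87 and 9.77 and was 1.55-fold and 1.66-fold lower. Cdc45, the helicase cofactor and the only measured member of its role, had 9.35, 8.66 and 8.58, which is 1.61-fold and 1.70-fold lower. For these 3 genes the mDC and tDC levels lay close together. The difference of mDC from tDC was -0.10 for Cdt1 and -0.08 for Cdc45. For Cdc6 it was 0.12, so its lowest level was in tDC.

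Promoters of the members were read for the E2F site, because the members moved together and E2F factors are known to drive many of them. The windows ran from 250 bases before to 50 bases after a RefSeq start site (GRCm38.p6), and 27 of the 31 members had at least 1. A gene with more than 1 window counted as having the site if any of its windows held it. The site was searched as TTTCCCGC, TTTCGCGC, TTTGCCGC and TTTGGCGC on both strands, and TTTCGCGC and TTTGGCGC can overlap each other on opposite strands. It was found for 8 of 27 members, or 29.6%, against 2.61% of 27025 genes. Of the 8, 6 belong to the ring and its loaders (Mcm3, Mcm5, Mcm6, Mcm7, Cdc6 and Cdt1), and the others are Pold1 and Lig1. The CCAAT box, searched as CCAAT on both strands, was found for 14 of 27 (41.1% of all genes) and the GC box, GGGCGG, for 21 of 27 (38.2%). These backgrounds hold every gene with a window, measured here or not. The members were chosen by function, and E2F factors are known to drive many of them. Their share with the E2F site is therefore no result about the arrays. Among other measured genes with a tDC difference, 303 had an E2F match and 6188 had none. Mcm2 had no match, and Mcm4 had no window. The MCM promoters with the match are shown first, with the matches in capitals, read 5′ to 3′ on the gene's strand. Another Mcm7 window, not shown, had no match, and neither had the other Lig1 windows.
Mcm3 promoter, chr1:20820263-20820562, strand -: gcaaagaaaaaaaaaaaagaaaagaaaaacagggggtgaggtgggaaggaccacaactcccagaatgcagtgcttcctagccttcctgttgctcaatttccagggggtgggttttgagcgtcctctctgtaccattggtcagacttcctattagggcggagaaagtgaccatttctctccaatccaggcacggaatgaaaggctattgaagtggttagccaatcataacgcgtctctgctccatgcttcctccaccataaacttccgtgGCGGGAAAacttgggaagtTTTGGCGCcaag
Mcm5 promoter, chr8:75109259-75109558, strand +: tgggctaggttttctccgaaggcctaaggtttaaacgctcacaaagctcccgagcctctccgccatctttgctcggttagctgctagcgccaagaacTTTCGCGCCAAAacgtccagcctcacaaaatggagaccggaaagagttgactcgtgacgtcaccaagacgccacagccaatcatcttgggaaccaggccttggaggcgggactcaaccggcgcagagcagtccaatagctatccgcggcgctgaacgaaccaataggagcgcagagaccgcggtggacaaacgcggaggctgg
Mcm6 promoter, chr1:128359656-128359955, strand -: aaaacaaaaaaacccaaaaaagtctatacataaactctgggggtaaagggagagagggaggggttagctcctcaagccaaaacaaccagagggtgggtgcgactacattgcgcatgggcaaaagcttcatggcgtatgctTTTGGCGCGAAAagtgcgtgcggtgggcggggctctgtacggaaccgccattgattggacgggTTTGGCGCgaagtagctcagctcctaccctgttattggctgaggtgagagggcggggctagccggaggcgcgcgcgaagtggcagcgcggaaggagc
Mcm7 promoter, chr5:138171834-138172133, strand -: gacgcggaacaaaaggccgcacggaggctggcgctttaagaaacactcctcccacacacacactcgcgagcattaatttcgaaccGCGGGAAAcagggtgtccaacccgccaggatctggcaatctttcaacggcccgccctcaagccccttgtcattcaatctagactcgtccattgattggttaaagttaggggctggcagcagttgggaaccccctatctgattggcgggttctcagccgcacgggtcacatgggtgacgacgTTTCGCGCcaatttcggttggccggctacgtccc

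In Mcm5 and in Mcm6 a pair of matches on opposite strands overlaps to form 1 longer run, and Mcm6 holds another nearer its start site. The Mcm3 matches and 1 of the Mcm7 matches lie after the start site. Ung, the member with the largest difference in mDC, and Tyms, the member that was higher, had none of the 4 words in their windows. No match says only that these letters are absent from this window.
Ung promoter, chr5:114130185-114130484, strand +: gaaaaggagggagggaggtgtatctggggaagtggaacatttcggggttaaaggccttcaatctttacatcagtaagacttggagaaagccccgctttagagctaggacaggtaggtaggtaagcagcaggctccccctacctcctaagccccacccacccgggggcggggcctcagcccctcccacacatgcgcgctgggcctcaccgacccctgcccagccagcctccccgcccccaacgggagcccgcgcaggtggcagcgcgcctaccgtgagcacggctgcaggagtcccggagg
Tyms promoter, chr5:30073576-30073875, strand -: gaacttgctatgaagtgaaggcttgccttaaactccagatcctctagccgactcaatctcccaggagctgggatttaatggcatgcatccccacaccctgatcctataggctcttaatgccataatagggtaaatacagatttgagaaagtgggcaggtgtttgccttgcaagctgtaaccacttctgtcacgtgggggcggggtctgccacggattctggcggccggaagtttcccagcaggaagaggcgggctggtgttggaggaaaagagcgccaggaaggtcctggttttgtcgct

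Members with a match were lower by a median of -0.57 in tDC and -0.64 in mDC (n = 8), and members without one by -0.45 and -0.49 (n = 19). Most of the 8 belong to the MCM ring and its loaders, whose medians were -0.58 and -0.67, so match and role largely coincide. In tDC all 8 with a match and 16 of the 19 without one were below imDC. Of other genes with a match 56.4% were below imDC in tDC (median -0.06) and 56.8% in mDC (median -0.09), against 49.4% and 50.0% of those without (medians 0). At 1.5-fold the shares lay closer. In tDC 7.92% of 303 other genes with a match were at least 1.5-fold lower, against 7.43% of 6188 without one. In mDC the shares were 12.9% of 303 and 12.9% of 6242. These are counts of letters in a window and of levels, with no test.

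**Figure D2:**
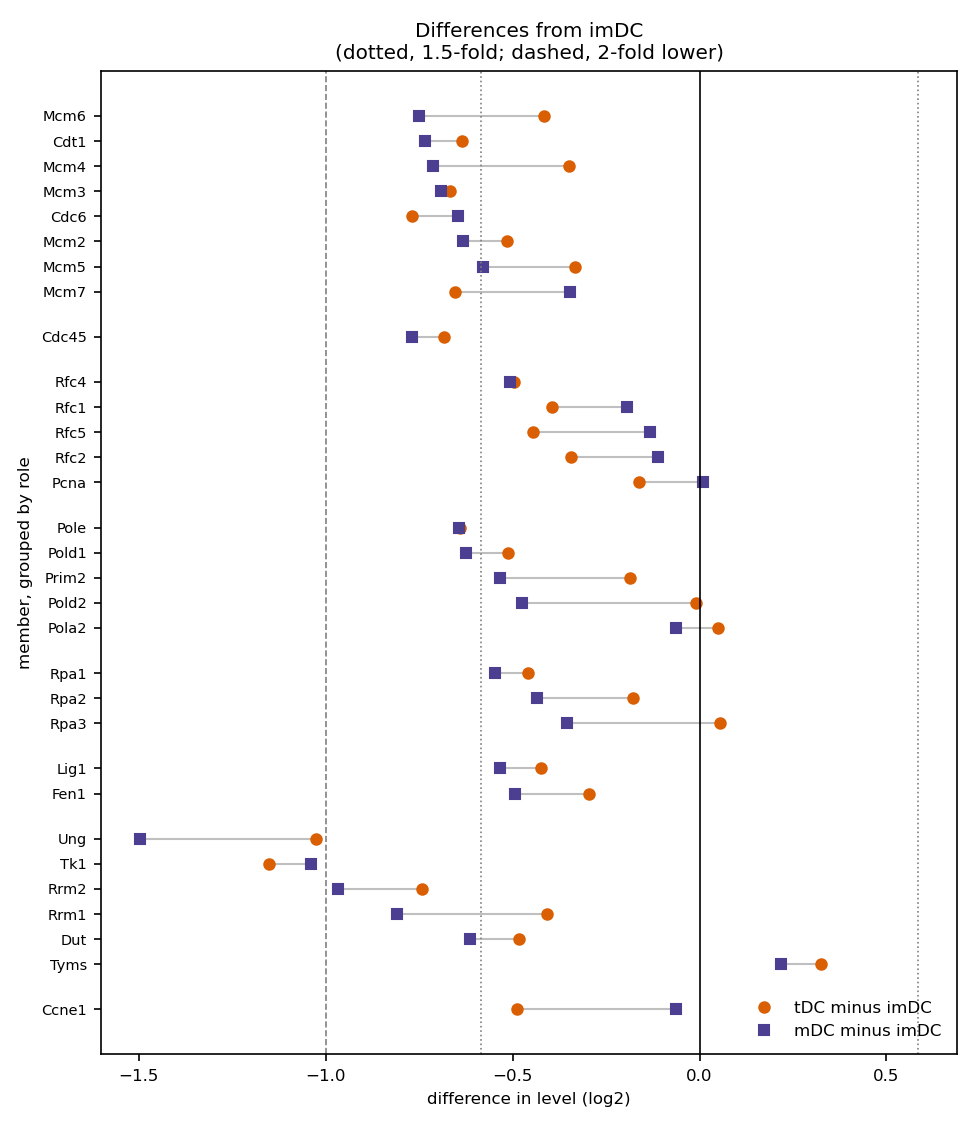
Log2 difference of each measured member from imDC, for tDC (circles) and mDC (squares), grouped by role, with dotted lines at 1.5-fold and a dashed line at 2-fold lower. The squares of the clamp loader genes lie to the right of or on the circles, whereas those of most polymerase, RPA and nucleotide genes lie to the left.

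Of the 5 measured genes of the sliding clamp and its loader, all were below imDC in tDC (median -0.39) and 4 in mDC (median -0.13). Over all genes 49.8% were below imDC in tDC and 50.2% in mDC. The clamp loader is a complex of 5 subunits that opens the Pcna ring around DNA, and 4 of its genes were measured. In tDC they were 1.27-fold to 1.41-fold lower than in imDC. In mDC Rfc4 was 1.42-fold lower than in imDC, with log2 levels of 8.97, 8.47 and 8.46 in imDC, tDC and mDC. Rfc1 (10.27, 9.87 and 10.07), Rfc2 (12.27, 11.92 and 12.16) and Rfc5 (8.32, 7.87 and 8.18) had mDC levels between the other 2 arrays, and their mDC differences from imDC were -0.19, -0.11 and -0.13, within or near the disagreement of 2 probes. Pcna, the clamp itself, had levels of 7.30, 7.14 and 7.31, a difference of -0.16 in tDC and 0.01 in mDC. Its mDC difference was below 0 under median scaling. The Pcna probe was dim, at 257 intensity units in imDC or 1.61 times the lowest detected signal there, and RefSeq lists the pseudogenes Pcna-ps1 and Pcna-ps2.

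Among the measured polymerase and primase genes, the 2 catalytic subunits had the largest differences from imDC. The catalytic subunits Pola1 and Prim1 were not above background. Pold1, the catalytic subunit of polymerase delta, had 10.62, 10.11 and 10.00 in imDC, tDC and mDC and was 1.43-fold lower in tDC and 1.54-fold lower in mDC. Pole, that of polymerase epsilon, had 7.66, 7.02 and 7.01 and was 1.56-fold lower in each. The Pole probe was dim, at 1.92 times the lowest detected signal in imDC. Over the settings its mDC difference shrank to as little as -0.42, where the smallest for Prim2 and Pold2 were -0.42 and -0.41. The other measured subunits differed from Pold1 and Pole in tDC. Pold2, an accessory subunit of polymerase delta, had 9.42 and 9.41 in imDC and tDC and 8.95 in mDC, so it was level with imDC in tDC (-0.01) and 1.39-fold lower in mDC. Prim2, the large primase subunit, had 8.50, 8.31 and 7.97, with 1.14-fold and 1.45-fold lower levels. Pola2, the regulatory subunit of polymerase alpha, had 9.17, 9.22 and 9.11 and differed from imDC by 0.05 and -0.06, less than the usual disagreement of 2 probes.

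The 3 subunits of RPA, which coats single-stranded DNA, were not lowered evenly. Rpa1, the large subunit, had 12.88, 12.42 and 12.33 in imDC, tDC and mDC and was 1.37-fold and 1.46-fold lower. Rpa2 had 8.55, 8.37 and 8.11, or 1.13-fold and 1.35-fold lower. Rpa3 had 10.80 in imDC and 10.85 in tDC, a difference of 0.05, and 10.44 in mDC, 1.28-fold lower. Rpa3, Pola2, Pold2 and Rpa2 are among the 7 members whose tDC level was not nearer to mDC than to imDC. The flap nuclease Fen1 had 11.92, 11.63 and 11.43 and was 1.23-fold and 1.41-fold lower. Lig1, the ligase that joins the fragments, had 9.43, 9.01 and 8.89 and was 1.34-fold and 1.45-fold lower.

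Among the members, Ung and Tk1, of the role of nucleotide synthesis and uracil removal, had the largest differences from imDC in both stimulated cultures. Ung, the glycosylase that cuts uracil out of DNA, had log2 levels of 9.41 in imDC, 8.39 in tDC and 7.92 in mDC. It was 2.04-fold lower in tDC and 2.82-fold lower in mDC, and 1.78% and 2.77% of all genes had a lower difference. The signals behind these values were 814, 416 and 306 intensity units. Tk1, thymidine kinase, which salvages thymidine, had 9.66 in imDC and similar levels of 8.51 and 8.62 in tDC and mDC. It was 2.22-fold lower in tDC, where 1.12% of all genes had a lower difference, and 2.06-fold lower in mDC. Without background correction Ung (log2 difference of -0.87) and Tk1 (-0.997) were under 2-fold in tDC, as was Tk1 in mDC (-0.90). A dimmer second Tk1 probe, detected on all 3 arrays, gave only -0.06 in tDC and -0.22 in mDC, and the mean of both probes -0.61 and -0.63, so the 2-fold difference of Tk1 rests on 1 probe.

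Ribonucleotide reductase, which makes deoxynucleotides, was lower in both subunits. Rrm2, the small subunit, had 9.55, 8.80 and 8.58 in imDC, tDC and mDC and was 1.67-fold and 1.96-fold lower. Rrm1, the large subunit, had 10.97, 10.56 and 10.16, with tDC between the others, and was 1.33-fold and 1.75-fold lower. Dut, which removes dUTP from the precursor pool, had 7.30, 6.82 and 6.69 and was 1.40-fold and 1.53-fold lower, from a probe near background. Tyms, thymidylate synthase, went the other way. Its levels were 10.55, 10.88 and 10.77, which put it 1.25-fold higher in tDC and 1.16-fold higher in mDC. It was the 1 member above imDC in both stimulated cultures under all 8 settings, the one used here and 7 alternatives. RefSeq lists a Tyms-ps pseudogene, whose transcripts a Tyms probe might share.

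Cyclin E1, encoded by Ccne1, pairs with Cdk2 at the entry into S phase. Ccne1 had 7.36 in imDC, 6.88 in tDC and 7.30 in mDC, from a probe 1.65 times the lowest detected signal. It was 1.40-fold lower in tDC and level with imDC in mDC (-0.06). Its mDC level was 1.34-fold above that of tDC, the largest upward difference between those arrays among the members.

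The members separated little between the stimulated cultures. For mDC against tDC the median difference was -0.11, against -0.02 for all genes, and the members ran from -0.47 (Ung) to 0.42 (Ccne1). Of 31 members 23 were lower in mDC than in tDC, against 52.2% of all genes. None reached 1.5-fold, lower (all genes, 8.17%) or higher (all genes, 7.59%), and none reached 2-fold, lower (all genes, 2.80%) or higher (all genes, 3.44%). The 8 that were higher in mDC than in tDC were Ccne1, Rfc5, Mcm7, Rfc2, Rfc1, Pcna, Cdc6 and Tk1, by 0.42 to 0.11.

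Read over the 3 arrays, the members shared a shape. The imDC array held the highest level for 27 of 31, against 38.1% of the 7187 genes detected on all 3 arrays. The order imDC, tDC, mDC from highest to lowest held for 20 of 31 (all genes, 25.4%). The tDC level lay nearer to that of mDC than to that of imDC for 24 of 31 (all genes, 51.1%), though 4 h of one stimulus stands against 24 h of another. The imDC array enters both comparisons with it, and an error on that array would move both the same way.

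**Figure D3:**
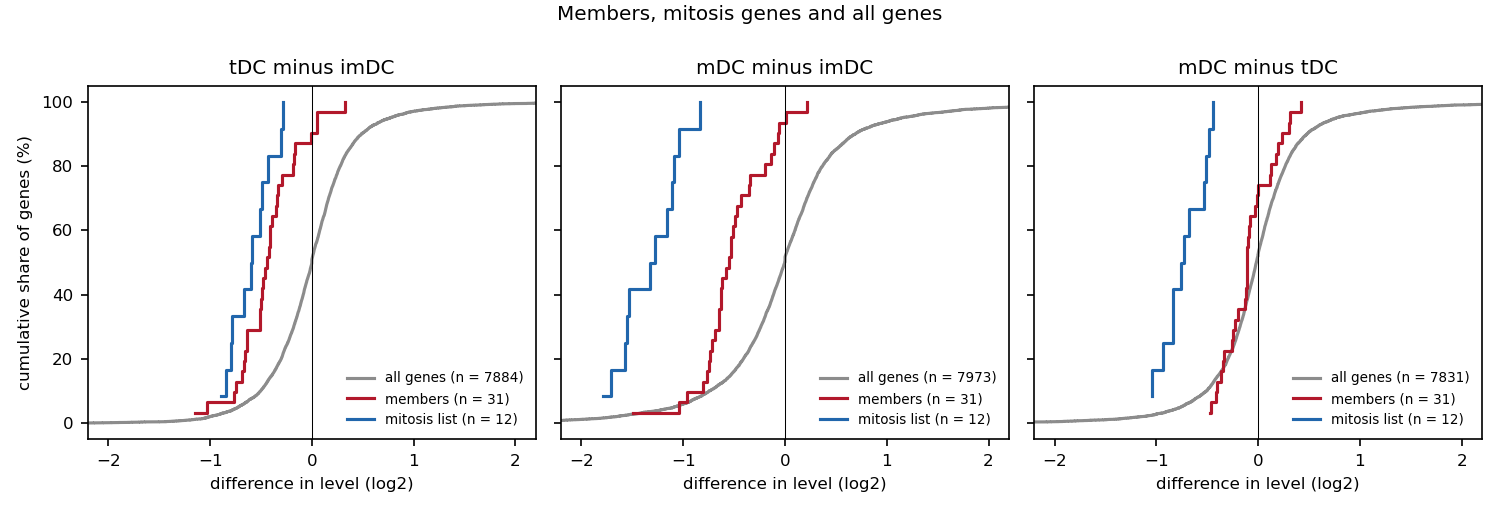
Cumulative share of genes (%) against the log2 difference in level, for the 31 members, the 12 measured genes of the mitosis list and all genes with a difference, in the 3 comparisons, with genes detected on 1 array of a pair at their bound. The members lie left of all genes in tDC and mDC against imDC and close to them in mDC against tDC, where the mitosis genes lie apart.

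Second probes bore on a few members. Of the 31, 24 had 1 detected probe, 5 had a second probe detected on all 3 arrays and 2 had one detected on 1 array only. The second probe of Mcm6 gave differences from imDC of -0.52 in tDC and -0.69 in mDC, that of Rrm2 -0.84 and -0.65, and that of Prim2 -0.37 and -0.44. These have the sign of the brighter probe. The second Tyms probe was again higher, by 0.44 and 0.29. The second Tk1 probe, which did not repeat the first, had 193 intensity units in imDC, where the lowest detected signal was 160. The second probes of Ung and Lig1 were above background in imDC only. Their levels there, 6.27 and 6.63, lay close to the lowest detected levels of tDC (6.22) and mDC (6.26), so they say little about the size of a difference.

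Other genes of the same processes, from lists that leave out the members, were also mostly lower. The medians of the origin and fork lists were -0.23 and -0.23 in tDC and -0.38 and -0.52 in mDC. Of 10 measured genes of origin recognition and firing, 0 were at least 1.5-fold lower in tDC (all genes, 7.79%). In mDC 3 of the 9 that could be compared were (all genes, 13.3%). There Cdc7, the kinase that fires origins, was 2.52-fold lower and Mcm10, a firing factor, differed by -1.07 on the log2 scale, while Orc5, a subunit of the origin recognition complex, was higher by a log2 difference of 0.92. Of 12 fork factors, 3 were at least 1.5-fold lower in tDC (all genes, 7.79%) and 4 in mDC (all genes, 13.3%). Wdhd1, which ties polymerase alpha to the helicase, was 2.55-fold lower in tDC and 2.80-fold lower in mDC, and Timeless, of the fork protection complex, 2.24-fold and 1.84-fold lower. Of 7 genes of chromatin assembly and DNA methylation behind the fork, 0 were at least 1.5-fold lower in tDC (all genes, 7.79%). In mDC 4 were (all genes, 13.3%), and the medians were -0.39 in tDC and -0.59 in mDC.

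Of nucleotide genes outside the list, 13 of 15 in salvage and turnover were below imDC in tDC and 12 of 15 in mDC. In de novo synthesis these counts were 6 of 14 and 12 of 14 (all genes, 49.8% and 50.2%). The salvage and turnover list had medians of -0.15 in tDC and -0.27 in mDC over 15 genes. At least 1.5-fold lower in each was 1 of the 15, Dck, deoxycytidine kinase (-0.64 and -0.82). Over all genes such shares were 7.79% and 13.3%, so the count in this list was not above the background. In that list Cmpk2, a mitochondrial nucleotide kinase also known as an interferon-induced gene, was higher in mDC by a log2 difference of 4.07, or 16.9-fold. The de novo purine and pyrimidine list was level in tDC (median 0.01 over 14 genes) and had a median of -0.17 in mDC. There Cad, which starts pyrimidine synthesis, was 2.14-fold lower in mDC and differed by -0.12 in tDC. Prps1, a phosphoribosyl pyrophosphate synthetase, was higher in tDC by 0.75, and Prps2, a second one, lower by a log2 difference of -0.72.

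The E2F and RB list did not move as one. Over 17 genes its median was -0.14 in tDC and -0.05 in mDC. E2f2, an activating E2F factor, was 2.08-fold lower in tDC and 2.80-fold lower in mDC. E2f1, another activator, named after its values were seen, differed by -0.67 and -0.26. Ccne2, the other cyclin E gene, was 1.87-fold lower in tDC and at least 2.91-fold lower in mDC, where it was not above background. Tfdp2, a partner of E2F factors, was 2.31-fold lower in mDC, whereas E2f5, a repressive E2F factor, was 2.32-fold higher.

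Mitosis genes, listed to set the members beside a later phase of the cycle, were lower still in mDC. All 12 measured were lower than in imDC in tDC and in mDC (all genes lower, 49.8% and 50.2%), with medians of -0.59 and -1.30. At least 2-fold lower in mDC were 11 of the 12, among them Birc5 (3.45-fold), Cdc20 (3.27-fold) and Kif11 (2.97-fold), against 2 of 31 members (all genes, 5.96%). In tDC the count was 0 of 12 (all genes, 2.02%). Between mDC and tDC, 8 of the 12 were at least 1.5-fold lower, against 0 of 31 members (all genes, 8.17%). The mitosis median was -0.74 there, beside -0.11 for the members. The difference between the lists was not tested.

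**Figure D4:**
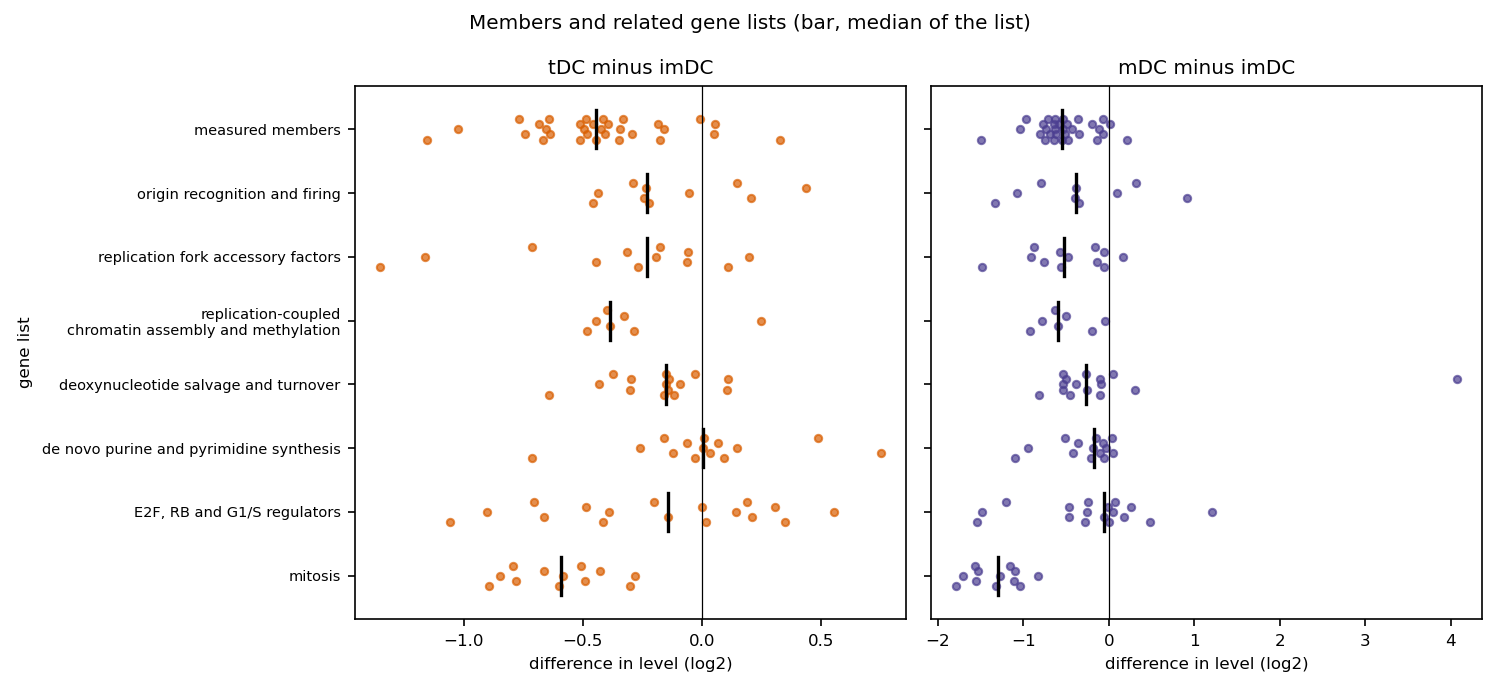
Log2 difference in level from imDC for the measured members and for 7 related gene lists that leave them out, for tDC (left) and mDC (right), 1 point per gene and a bar at each list's median, on horizontal axes that differ. The member bars lie at -0.45 and -0.55 and the mitosis bars at -0.59 and -1.30, and the lone point at 4.07 is Cmpk2.

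Markers of other cell types moved between the same arrays. Over all genes, 3856 of 7884 were above imDC in tDC and 3845 of 7973 in mDC. Granulocyte precursor markers were higher in tDC for 14 of 14 genes, 12 of them by at least 1.5-fold (all genes, 7.61%). In mDC 12 of 14 were above imDC, 6 of them by at least 1.5-fold (all genes, 12.4%). Retnlg (-1.28) and Elane (-0.51) were below imDC there, and 10 of 14 were lower in mDC than in tDC. Their summed normalized signal was 67323 intensity units in imDC, 127550 in tDC and 147250 in mDC. Between tDC and mDC the sum followed Lcn2, whose log2 level was 14.67 and 15.98, while the list's median difference was -0.22. Mast cell and basophil markers summed to 4429, 12579 and 33651, with 7 of 7 higher in mDC and Mcpt4 at background on every array. Hdc, at 21.6-fold above imDC in mDC and a log2 level of 14.69, made up most of the mDC sum, and the other 6 were 1.55-fold to 3.06-fold higher (list median 1.47). Macrophage and monocyte markers went both ways in mDC, with C1qa and Ccr2 at background. Of these markers 4 of 8 were at least 2-fold lower (all genes, 5.96%) and 3 of 8 at least 2-fold higher (all genes, 6.16%). Their sums were 25083, 39666 and 63752, though the list medians were -0.67 in tDC and -0.84 in mDC. The mDC sum followed the 3 higher genes, Cd14, Adgre1 and Ly6c1 (log2 levels there of 15.08, 13.96 and 13.58). Mrc1, 1 of the 4 lower genes, was 47.1-fold lower in mDC. Dendritic cell markers summed to 91480, 97712 and 68386. Of the 8 measured, 5 were higher in tDC (list median 0.05) and 2 in mDC (list median -0.48). Itgax, which encodes CD11c, differed by -1.19 in tDC and -1.96 in mDC, and H2-Ab1 by 0.02 and -1.04. Cd209a, above background in imDC only, was at least 2.32-fold lower in tDC and at least 2.25-fold lower in mDC. The 2 higher in mDC, named though under 2-fold, were Ccr7, the chemokine receptor for migration to lymph nodes, and Cd86, a costimulatory ligand. Ccr7 differed by 0.47 in tDC and 0.72 in mDC, and Cd86 by 0.28 and 0.52. Of 8 lymphocyte markers 4 were measured, 1 of them above background in imDC, with sums of 177, 276 and 461 and with Ms4a1, Ncr1 and Gzmb at background on every array. Of 8 erythroid and progenitor markers 3 were measured, with sums of 4069, 8023 and 5579 and with Klf1, Gata1 and Alas2 at background throughout. Tfrc made up most of each sum, with log2 levels of 11.95, 12.95 and 12.36, and Hba-a1 was above background in mDC only. The part of these cells in the differences of the replication genes was not tested.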

How the data were processed

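Total RNA (550 ng) from 3 dendritic cell cultures was labelled with biotin, per the labels' protocols, and hybridised to 1-colour Illumina arrays, 1 per group. The deposited signals are linear intensities of single probes and the deposited detection p-values accompany them, per the file headers. The submitters' processing notes list GenomeStudio 2011.1. A table of log2 intensities by the authors has the same median (6.98) on each array, and its normalization is not given in the sources used here.

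Signals were background corrected by normexp with detection p-values and an offset of 16, quantile normalized over the 3 arrays and put on the log2 scale (neqc, limma 3.58.1, R 4.3.3). Of 25697 probes, 11556 had a detection p under 0.01 on at least 1 array. The annotation names 23978 probes, of which 23962 matched the RefSeq gene table of GRCm38.p6 by Entrez ID. The brightest kept probe stood for a gene. Differences are first array minus second. A gene detected on 1 array of a pair gives a bound, computed on the dim side from the lowest detected level or its own level, whichever is higher. Probes detected numbered 11006 (imDC), 10764 (tDC) and 10673 (mDC). The steps were tested on simulated data, with changes larger than the members' median differences from imDC planted in bright probes only. That test did not cover changes of the size of those medians, or changes in dim probes. Every measured member is described; of related lists, genes at least 2-fold apart in a comparison, or otherwise the one with the largest difference each way, could be named, and of marker lists those at 2-fold or more. The members, lists and rules were chosen with earlier results of these data known. Alternatives were no background correction, median scaling, an offset of 50, the authors' values, a detection p under 0.05, detection on all 3 arrays, and the mean of a gene's probes.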

Additional observations from a re-analysis of the deposited data

How the results depend on the processing

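Under the 7 alternatives, 93 recomputed counts and medians of the members stayed near the reported value (within 1.5 times for a count, or the usual disagreement of 2 probes for a median). The 12 that did not are counts of members lower than in imDC. The 93 include every count that was 0 under all settings, namely those of higher members and those of lower members in mDC against tDC. At least 2-fold lower in tDC than in imDC were 2 members, but 0 without background correction and 1 with an offset of 50, with the authors' values and with the mean of probes. For mDC against imDC the same count was 2, but 1 under each of those 4 alternatives. At least 1.5-fold lower in tDC were 9, but 5 without background correction and 5 with the authors' values. In mDC they were 14, but 9 and 9 under the same alternatives. Leaving background in the signal shrinks differences of dim probes by construction; for the authors' values the cause was not tested. The members' median ran from -0.37 to -0.47 in tDC and from -0.46 to -0.64 in mDC over all settings. Recomputed differences of single members moved by less than that disagreement in 614 cases and by more in 37, and 0 members at 1.5-fold changed sign. Part of this stability, and of that of the counts and medians, was fixed in advance. Every measured member was detected on all 3 arrays, so the 2 alternative detection filters could not change a member's value. The mean of probes could not change the 24 members with 1 detected probe. Signs differed between settings for Pola2 in tDC, Pcna in mDC, and Tk1 between mDC and tDC, all near 0. The Pcna, Pole, Dut and Ccne1 probes lay under 2 times the lowest detected signal in imDC. Groups of 1 array allow no replicate to be left out.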
